A study of Rattus norvegicus with 9 samples.

Results

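The genes described here encode the machinery that fills, docks, and fuses synaptic vesicles. There were 46 of them among 19293 gene symbols on the array, and a gene belonged to the set when a non-control probe carried its symbol. Where a gene had several probes, the one with the highest mean log2 signal over the 9 arrays stood for it. All 46 genes were measured, and all 46 were above background on every Sham array. Of the 46, 45 were well above background on all 9 arrays, and Doc2b was so on 6 of 9.

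The animals were male Sprague-Dawley rats, and their age was not given in the sources used here. In the I/R group, a nylon suture advanced through the right carotid artery blocked the middle cerebral artery for 2 h and was then withdrawn, so that blood flow returned. The DHI group had the same operation followed by daily tail vein doses of Danhong injection, a herbal preparation used in stroke care, until day 14. Sham rats underwent surgery without occlusion and were given vehicle, whereas the injections that the I/R group received were not stated. RNA came from the infarcted hemisphere, or the matching one in Sham, at day 14 after surgery, with 3 arrays per group. The arrays of a group were described as biological replicates, without saying whether each held 1 rat, so the p-values given here describe the spread between arrays.

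In a nerve terminal, vesicles are loaded with transmitter by transporters in their membrane and are held near the release site by synapsins and the active zone scaffold. Munc13 and RIM proteins prime them. Syntaxin, SNAP-25, and VAMP, the SNARE proteins, then pull the vesicle and plasma membranes together, and calcium binding to synaptotagmin triggers fusion. Complexin holds and then assists the assembled SNAREs, and NSF with its SNAP adaptors takes them apart afterward. Most of these genes are expressed mainly in neurons, and many of them are used as markers of synapse density.

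Levels are given as the log2 signal of a probe minus the log2 of the 75th percentile of its array, which ranged from 2570 to 2745 intensity units on the Sham arrays, 2629 to 3464 on the I/R arrays, and 1816 to 2785 on the DHI arrays. A difference of 1 on this scale is a doubling. Levels of different probes cannot be compared with each other. A gene was called when the unadjusted limma p-value was under 0.05 and the fold change was over 1.5, the thresholds of the study's methods. Sham and I/R arrays were hybridised on slide 1 and DHI arrays on slide 2, so that I/R versus Sham lay within a slide, whereas the effect of DHI cannot be told apart from that of its slide. A hemisphere also holds tissue outside the territory of the artery, and cell type markers are given after the vesicle genes.

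I/R versus Sham asked what the injury left behind at day 14. Of the 46 genes, 40 were called, 39 lower and 1 higher in I/R, or 87%, whereas 43.1% of the 23747 probes tested were called in either direction and 22.3% were called lower. The gene called higher was Syngr1. With Benjamini-Hochberg adjustment over all probes, 30 genes kept an adjusted p under 0.05, all lower, against 15.1% of probes. The median difference was -2.21, a 4.61-fold decrease, while the median of all probes was -0.10. The estimates ran from -4.004 for Syt2 to 0.75 for Syngr1, and 45 of 46 were negative. In 40 genes all I/R arrays lay below all Sham arrays, against 35.8% of all probes, and in 1, Syngr1, all lay above, against 26.7%. Such separation in either direction held for 89.1% of these genes and 62.5% of all probes. The 6 genes that were not called were Syt6, Syt9, Doc2b, Rab3b, Rab3c, and Sv2c. The methods' t-test called 28 of the 46 at the same thresholds, against 39.8% of all probes. In RNA of a whole hemisphere, fewer neurons and less transcript per neuron cannot be told apart.

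The 30 adjusted calls rested on the full set of arrays. Their number was 0 when any Sham array, I/R 1, I/R 2, or DHI 3 was left out, and it was 39 without DHI 1, while the unadjusted count stayed between 28 and 41. Without scaling between arrays it was also 0, with a lowest adjusted p of 0.052 among these genes. Of all probes, 31.5% passed in the main fit and 43.2% without DHI 1. In each fit that gave 0 for these genes, at most 1 of all probes passed.

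The I/R arrays were unequal. Relative to the Sham mean, the median of the 46 genes was -3.14 on I/R 1, -2.56 on I/R 2, and -0.92 on I/R 3. I/R 3 carried the highest I/R value for 42 of the genes, and it was nearer the I/R mean than the Sham mean for 22, compared with 46 on I/R 1 and 45 on I/R 2. Even so, 42 genes on I/R 3 were below every Sham array, against 44 on each of the others. Without I/R 3 the median difference was -2.84, and without I/R 1 it was -1.75. The SD of these genes within a group was 0.19 at the median on the Sham arrays, 1.08 on the I/R arrays, and 1.04 on the DHI arrays.

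**Figure D1:**
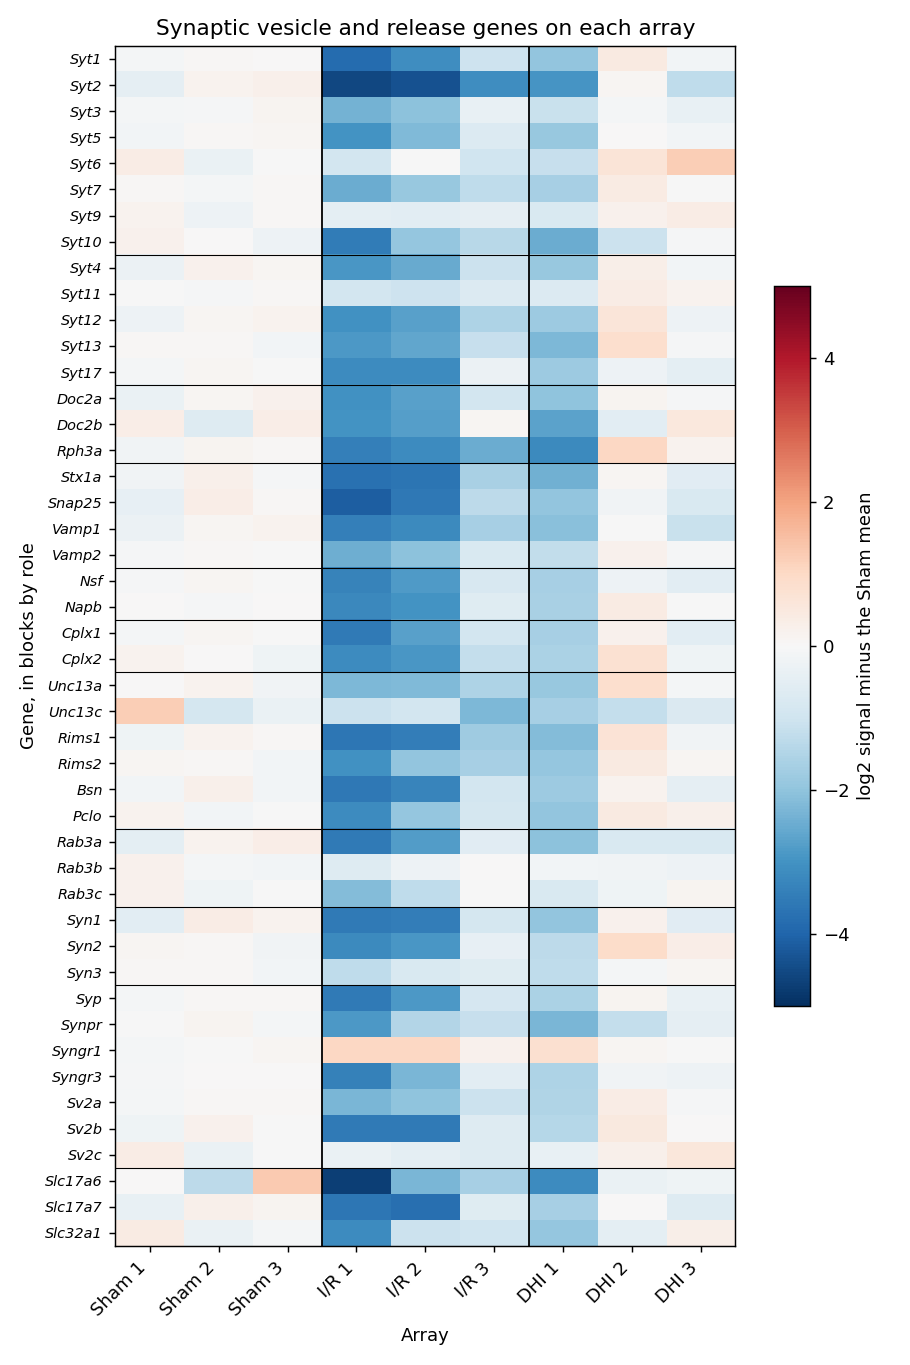
Level of each of the 46 genes (vertical axis, in blocks by role) on each of the 9 arrays (horizontal axis), as log2 signal minus the mean of the 3 Sham arrays, from blue (lower) to red (higher). The darkest blue columns are I/R 1, I/R 2, and DHI 1, with array medians of -3.14, -2.56, and -1.83, and I/R 3 is paler blue with -0.92, while DHI 2 and DHI 3 stay near Sham, and Syngr1 is the gene with the opposite colour.

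Before the values by role, the promoters of a few members are shown, because these genes changed together and promoter sequence was no part of how they were chosen. RefSeq promoters of rat assembly GRCr8 were at hand for 33 of the 46 genes, and the 250 bases before the annotated start were searched on both strands. The GC box GGGCGG was present in 23 of 33, or 69.7%, compared with 40.32% of 19005 protein-coding promoters, and the median GC content was 61.6% against 54.8%. The TATA box letters TATAAA were in none of the 33 and in 12.34% of all promoters. The cAMP response element TGACGTCA was in 2, Syn1 and Vamp1, or 6.061%, against 2.026%. The E-box CAGGTG was in 11, or 33.33%, against 15.66%, and the letters TTCAGCACC, which begin the site of the neuronal repressor REST, were in none and in 0.342% of all. The comparison set was all protein-coding promoters, not matched for expression in brain or for GC content. A match of letters is a description and not a binding site. The promoters printed are those of the synapsin and the VAMP that held a cAMP response element, of their core partners Vamp2, Stx1a, and Syt1, and of Syt2, which fell most, with GC boxes and cAMP response elements, on either strand, in capitals. They lie at chrX:3725495-3725744 (+) for Syn1, chr4:159698644-159698893 (+) for Vamp1, chr10:54292539-54292788 (+) for Vamp2, chr12:27306472-27306721 (-) for Stx1a, chr7:46244214-46244463 (-) for Syt1, and chr13:48736872-48737121 (+) for Syt2.
Syn1: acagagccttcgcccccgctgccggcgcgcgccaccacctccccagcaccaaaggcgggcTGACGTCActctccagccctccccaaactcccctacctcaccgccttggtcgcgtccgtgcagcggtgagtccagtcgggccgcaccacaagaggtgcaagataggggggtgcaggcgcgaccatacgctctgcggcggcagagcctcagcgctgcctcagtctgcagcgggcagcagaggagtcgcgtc
Vamp1: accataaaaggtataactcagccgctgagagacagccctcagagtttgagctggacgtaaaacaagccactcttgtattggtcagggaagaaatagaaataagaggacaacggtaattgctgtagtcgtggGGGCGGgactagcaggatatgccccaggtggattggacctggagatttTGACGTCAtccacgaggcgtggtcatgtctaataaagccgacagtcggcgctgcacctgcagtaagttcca
Vamp2: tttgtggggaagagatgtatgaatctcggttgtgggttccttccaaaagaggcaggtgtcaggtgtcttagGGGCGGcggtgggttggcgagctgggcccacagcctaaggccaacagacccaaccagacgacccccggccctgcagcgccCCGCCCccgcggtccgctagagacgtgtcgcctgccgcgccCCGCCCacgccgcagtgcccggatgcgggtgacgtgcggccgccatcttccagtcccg
Stx1a: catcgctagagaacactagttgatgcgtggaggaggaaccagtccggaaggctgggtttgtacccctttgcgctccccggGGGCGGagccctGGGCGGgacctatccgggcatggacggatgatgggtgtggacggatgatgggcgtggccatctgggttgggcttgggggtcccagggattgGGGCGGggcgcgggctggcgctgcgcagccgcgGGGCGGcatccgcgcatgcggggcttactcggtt
Syt1: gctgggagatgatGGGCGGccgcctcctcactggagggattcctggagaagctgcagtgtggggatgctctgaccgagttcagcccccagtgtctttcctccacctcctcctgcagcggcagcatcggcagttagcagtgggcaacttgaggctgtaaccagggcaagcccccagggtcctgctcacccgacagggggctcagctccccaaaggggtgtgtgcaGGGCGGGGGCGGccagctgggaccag
Syt2: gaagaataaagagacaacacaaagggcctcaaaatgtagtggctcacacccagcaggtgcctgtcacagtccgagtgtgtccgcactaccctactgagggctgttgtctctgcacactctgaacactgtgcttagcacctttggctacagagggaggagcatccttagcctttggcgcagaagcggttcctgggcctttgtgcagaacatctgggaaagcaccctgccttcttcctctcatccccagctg
The Syt2 and Syn1 stretches held no GC box, whereas Stx1a held 4 and Syt1 and Vamp2 held 3 each. The relation of these counts to the size of the change was not tested.

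Calcium sensors came first among the roles. Of 8 synaptotagmins with a calcium-binding role, 6 were called lower in I/R versus Sham, and the median difference was -1.93. The level of Syt1, the main fast sensor of forebrain terminals, was -0.62, -0.49, and -0.51 on Sham 1 to Sham 3, -4.38, -3.66, and -1.57 on I/R 1 to I/R 3, and -2.51, -0.10, and -0.68 on DHI 1 to DHI 3. All I/R arrays were below all Sham arrays, and the DHI arrays ran from the I/R range (DHI 1) to above Sham (DHI 2). Syt1 fell by 2.66 (SE 0.80, adjusted p = 0.0426 with limma). The probe lay at chr7:47243495-47243554 of rn4, the build of the array design.

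Syt2, the fast sensor of brainstem, spinal, and some inhibitory terminals, had the largest change of the set. Its level was -2.58, -1.95, and -1.89 on the Sham arrays, -6.69, -6.49, and -5.25 on the I/R arrays, and -5.07, -2.05, and -3.43 on the DHI arrays. The I/R arrays lay below every other array, including all of DHI. In I/R versus Sham it fell by 4.004 (SE 0.72, adjusted p = 0.0396), a 16.04-fold decrease, at chr13:47697767-47697826 of rn4. The direction held in all 21 alternatives, from -4.45 to -2.74. Syt7, a slower sensor of high calcium affinity, fell by 1.89, Syt10 by 2.27, Syt5 by 1.97, and Syt3 by 1.59. The estimates were -0.65 (SE 0.58) for Syt6 and -0.49 (SE 0.29) for Syt9, neither of which was called. For Syt9 the I/R arrays were nevertheless all below Sham, with an SD in I/R of 0.04.

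All 5 of the other synaptotagmins, which bind calcium weakly or not at all, were called lower. Syt12 fell by 2.42 (SE 0.61), Syt13 by 2.21, Syt17 by 2.20, and Syt4 by 2.17. Syt11, which is also expressed outside neurons, fell by only 0.88 (SE 0.27, adjusted p = 0.0437), and its array values were tight, with an SD of 0.05 in Sham and 0.19 in I/R.

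Among the C2-domain proteins outside the synaptotagmin family, Rph3a and Doc2a were called lower. Rph3a encodes rabphilin, which binds Rab3 on the vesicle. Its level was -1.82, -1.52, and -1.59 on the Sham arrays, -5.07, -4.80, and -4.12 on the I/R arrays, and -4.84, -0.60, and -1.47 on the DHI arrays. The I/R arrays agreed within an SD of 0.49, while the DHI arrays split, 1 among the I/R values and 2 above Sham, with an SD of 2.24, the largest of the set. Rph3a fell by 3.02 (SE 0.94, adjusted p = 0.045). Doc2a fell by 2.22, and Doc2b, dim on the array, had an estimate of -1.88 with an SE of 1.00.

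The 4 SNARE genes all fell, with a median of -2.88, the largest median decrease of any role. Snap25, a SNARE of the plasma membrane, was measured by a probe with 10 spots at chr3:124893776-124893835. Its level was 4.52, 5.26, and 5.001 on the Sham arrays, 0.80, 1.36, and 3.61 on the I/R arrays, and 2.96, 4.75, and 4.15 on the DHI arrays. I/R 3 was the highest I/R array but remained below Sham. Snap25 fell by 3.00 (SE 0.74, adjusted p = 0.0396), an 8.02-fold decrease, and its second probe fell by 3.05. Stx1a, the syntaxin partner of Snap25, had levels of 5.07, 5.51, and 5.20 on the Sham arrays, 1.52, 1.61, and 3.66 on the I/R arrays, and 2.87, 5.35, and 4.69 on the DHI arrays. The arrays fell in the same order as for Snap25 within I/R and within DHI. Stx1a fell by 3.00 (SE 0.74, adjusted p = 0.0396).

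Vamp2 and Vamp1 encode the vesicle SNAREs. Vamp2 had levels of 3.48, 3.60, and 3.51 on the Sham arrays, 1.09, 1.46, and 2.78 on the I/R arrays, and 2.30, 3.73, and 3.46 on the DHI arrays. The Sham arrays differed by little, with an SD of 0.06, and every I/R array was lower. Vamp2 fell by 1.76 (SE 0.49, adjusted p = 0.0405) and Vamp1 by 2.77 (SE 0.59, adjusted p = 0.0396). The genes of SNARE disassembly followed, Nsf with a decrease of 2.33 and Napb with 2.26, as did both complexins, Cplx1 with 2.40 and Cplx2 with 2.42.

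All 6 genes of priming and the active zone were called lower. Rims1, a scaffold that links vesicles to calcium channels, had levels of -1.98, -1.58, and -1.68 on the Sham arrays, -5.38, -5.20, and -3.54 on the I/R arrays, and -3.93, -1.05, and -1.94 on the DHI arrays. Only DHI 2 rose above the Sham arrays. Rims1 fell by 2.95 (SE 0.75, adjusted p = 0.0396), a 7.74-fold decrease. The large scaffold Bsn fell by 2.59 and its relative Pclo by 1.99, Rims2 fell by 2.22, and Unc13a, a Munc13 primer, fell by 2.00. Unc13c, the Munc13 best known from the cerebellum, fell by 1.41 (SE 0.58), but its Sham arrays were far apart at -1.58, -3.65, and -3.14. Its second probe fell by 2.75.

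Of the 3 Rab3 GTPases, which tether vesicles, only Rab3a was called lower. Rab3a fell by 2.30 (SE 0.73, adjusted p = 0.0458), whereas the estimate was -0.29 (SE 0.19) for Rab3b and -1.16 (SE 0.50) for Rab3c, neither called. For Rab3b the arrays of I/R lay between 0.14 and 0.78 and overlapped those of Sham, between 0.65 and 0.98. The within-array difference Rab3a minus Rab3b, given below, also overlapped between I/R and Sham. A difference between Rab3a and Rab3c was not tested.

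All 3 synapsins, the phosphoproteins that cluster vesicles, were called lower. Syn1 had levels of -0.92, -0.00011, and -0.20 on the Sham arrays, -3.89, -3.83, and -1.27 on the I/R arrays, and -2.36, -0.15, and -0.95 on the DHI arrays. I/R 3 was just below the lowest Sham array, and the other I/R arrays were far below it. Syn1 fell by 2.62 (SE 0.80, adjusted p = 0.0432). Syn2 had levels of 1.41, 1.40, and 1.17 on the Sham arrays, -1.87, -1.57, and 0.90 on the I/R arrays, and 0.0004, 2.23, and 1.65 on the DHI arrays. On I/R 3 it was just below Sham, and 2 of the DHI arrays were above Sham. Syn2 fell by 2.17 (SE 0.79, adjusted p = 0.0631), so that it was called without passing the adjustment, and its call was lost in 5 of 21 alternative settings, among them those without I/R 1 (-1.66), I/R 2 (-1.81), Sham 1, or Sham 2. Syn3 fell by 0.89 (SE 0.36).

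Of the 7 vesicle membrane proteins, 5 were called lower, 1 higher, and 1 was not called. Syp, or synaptophysin, the most common marker of vesicles, had levels of 3.72, 3.86, and 3.86 on the Sham arrays, 0.27, 0.95, and 2.98 on the I/R arrays, and 2.24, 3.94, and 3.43 on the DHI arrays. It fell by 2.41 (SE 0.69, adjusted p = 0.0407) with no overlap between I/R and Sham. Sv2b, a glycoprotein of the SV2 family, had levels of -1.51, -1.06, and -1.30 on the Sham arrays, -4.81, -4.81, and -1.94 on the I/R arrays, and -2.72, -0.81, and -1.29 on the DHI arrays. I/R 1 and I/R 2 stood apart from I/R 3, which was close to Sham. Sv2b fell by 2.57 (SE 0.80, adjusted p = 0.045) and Sv2a by 1.79, while the estimate for Sv2c, the form of the basal ganglia, was -0.49 (SE 0.28), which was not called.

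Synpr, or synaptoporin, a relative of synaptophysin, had levels of 0.46, 0.62, and 0.40 on the Sham arrays, -2.37, -0.99, and -0.67 on the I/R arrays, and -1.78, -0.69, and 0.06 on the DHI arrays. Both injured groups lay wholly below Sham. Synpr fell by 1.84 in I/R versus Sham (SE 0.54, adjusted p = 0.0419). Syngr1, or synaptogyrin, was the exception of the whole set. Its level was -2.97, -2.91, and -2.78 on the Sham arrays, -1.86, -1.84, and -2.68 on the I/R arrays, and -2.10, -2.78, and -2.90 on the DHI arrays. I/R 1, I/R 2, and DHI 1 were high, and I/R 3 was barely above Sham. Syngr1 rose by 0.75 (SE 0.29, adjusted p = 0.0741), and the call was lost in 8 of 21 alternatives, among them quantile normalization (0.68) and leaving out any Sham array, I/R 1 (0.62), or I/R 2 (0.61). Its relative Syngr3 fell by 2.06 (SE 0.67).

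The vesicular transporters define which transmitter a terminal releases, and all 3 were called lower. Slc17a7, the glutamate transporter VGLUT1 of cortex and hippocampus, had levels of -2.62, -2.03, and -2.14 on the Sham arrays, -5.87, -6.04, and -2.87 on the I/R arrays, and -3.91, -2.25, and -2.90 on the DHI arrays. I/R 3 differed from the other I/R arrays by more than the whole range of Sham, and the SD of I/R, 1.78, was the largest of the set in that group. Slc17a7 fell by 2.66 (SE 0.82, adjusted p = 0.0442). Slc17a6, the VGLUT2 of thalamic and brainstem neurons, had levels of -0.04, -1.36, and 1.26 on the Sham arrays, -4.75, -2.33, and -1.72 on the I/R arrays, and -3.20, -0.38, and -0.27 on the DHI arrays. Sham itself was widely spread, with an SD of 1.31, the largest in that group, yet I/R did not overlap it. Slc17a6 fell by 2.89 (SE 1.09, adjusted p = 0.0694). Slc32a1, the transporter VGAT of inhibitory terminals, had levels of 4.35, 3.62, and 3.83 on the Sham arrays, 0.80, 2.86, and 2.93 on the I/R arrays, and 1.99, 3.46, and 4.24 on the DHI arrays. Here I/R 2 was close to I/R 3 and only I/R 1 was far down. Slc32a1 fell by 1.73 (SE 0.71, adjusted p = 0.0845). Its call was lost in 7 of the 21 alternatives, among them those without I/R 1 (-1.03) or without any of the Sham arrays, and that of Slc17a6 was lost in 4, among them those without I/R 1 (-1.98), Sham 1, or Sham 3.

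**Figure D2:**
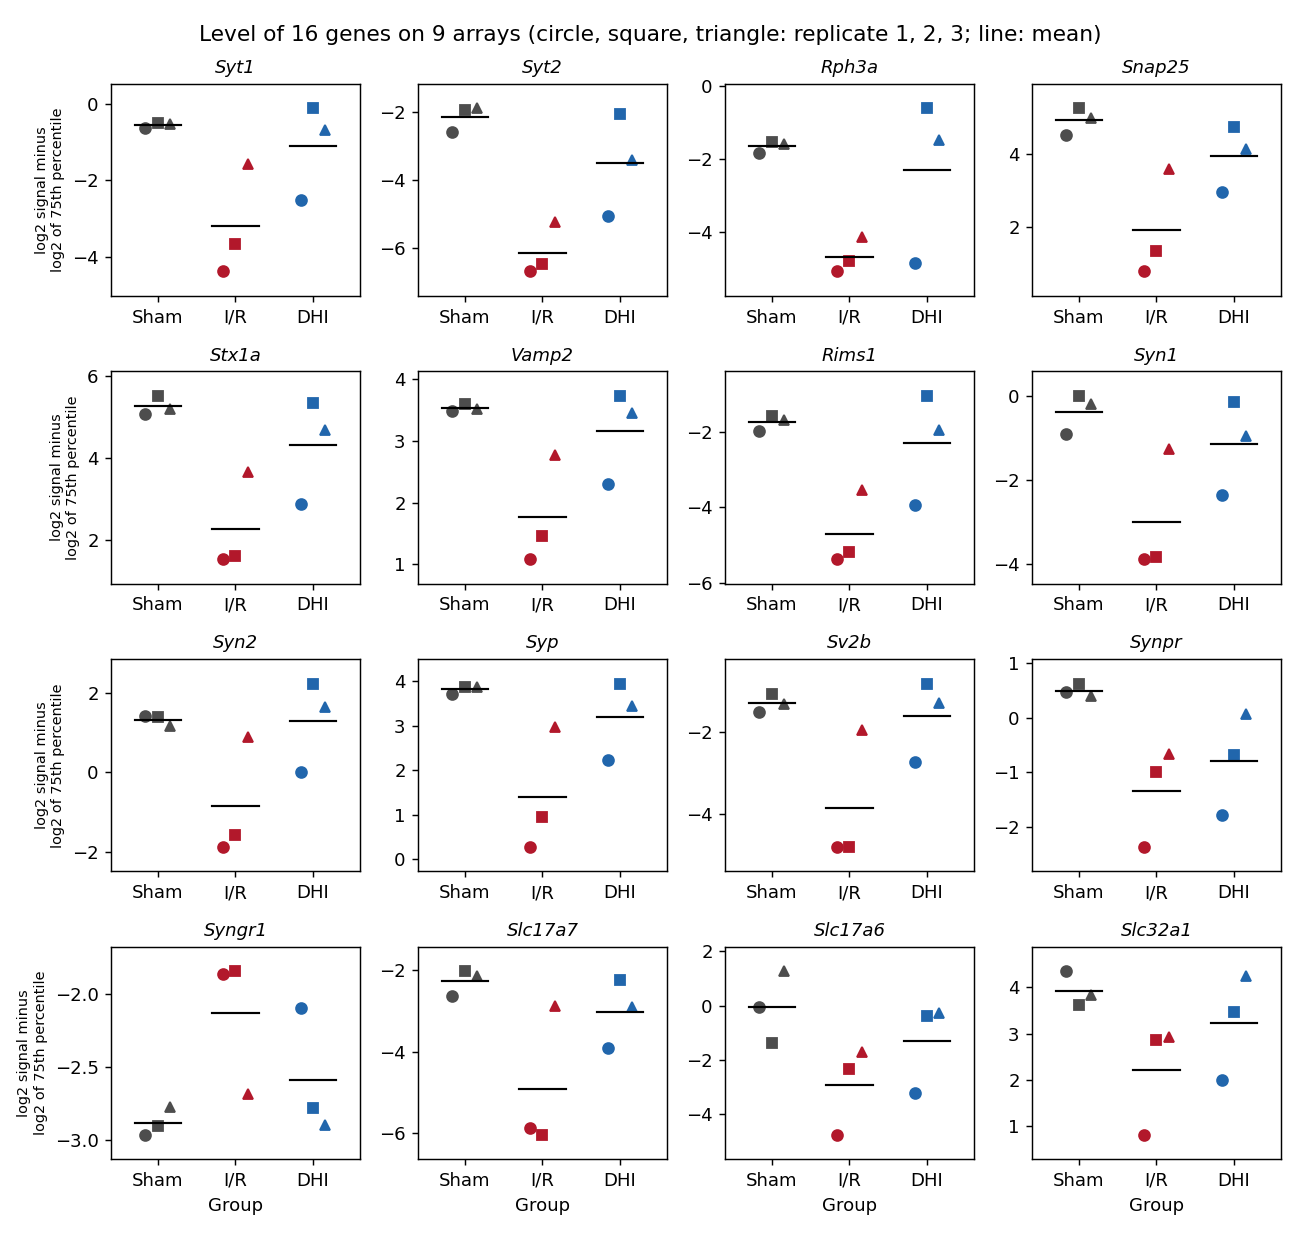
Level of 16 genes (vertical axis, log2 signal minus log2 of the 75th percentile of the array, with its own range in each panel) by group, from left to right Sham, I/R, and DHI. Circles, squares, and triangles are replicates 1, 2, and 3, and lines are group means of 3 arrays; the circle of DHI lies toward I/R in each panel and the triangle of I/R toward Sham in most of them.

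A second probe was present for 9 of the genes, namely Bsn, Cplx1, Pclo, Rims2, Snap25, Synpr, Syt4, Unc13c, and Vamp1. All 9 second probes gave the same direction as the first in each of the 3 comparisons. In I/R versus Sham all 9 were called, with differences from -3.05 to -1.36. The greatest gaps between the probes of a gene were in Unc13c, -1.41 against -2.75, and in Bsn, -2.59 against -1.36.

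DHI versus I/R asked what differed in the injured hemisphere after treatment. Of the 46 genes, 25 were called and all 25 were higher in DHI, or 54.3%, compared with 21.9% of all probes in either direction and 11.5% called higher. None passed the adjustment, as 1 of all probes did (0.00421%), the lowest limma adjusted p of the set being 0.196, and the methods' t-test called 0 at the same thresholds. The median difference was 1.57, a 2.97-fold increase, against 0.10 for all probes, and 45 of 46 estimates were positive, the exception being Syngr1 with -0.46. In spite of this, the arrays of DHI and I/R were separate for only 2 genes, Syt2 and Syt11, or 4.35%, while 9.54% of all probes were separate, 5.52% with DHI higher.

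The DHI arrays were unequal too. DHI 1 had the lowest DHI value for 44 of the 46 genes, was below every Sham array for 44, and was nearer the I/R mean than the Sham mean for 45. DHI 2 and DHI 3 were nearer the I/R mean for 3 and 1 genes. Relative to Sham, the median of the genes was -1.83 on DHI 1, 0.15 on DHI 2, and -0.13 on DHI 3. DHI 2 was above all I/R arrays for 39 genes and DHI 3 for 40, but DHI 1 for 2. Without DHI 1, 39 genes were called, 38 higher and Syngr1 lower, 32 of them with an adjusted p under 0.05, and the median was 2.23. Of all probes, 45.2% were called in that fit, and 40.1% were called with an adjusted p under 0.05. The groups were then separate for 36 genes in the higher direction, against 40.7% of all probes. Without DHI 2 or DHI 3 instead, 6.48% and 6.17% of all probes were separate in that direction. Leaving out I/R 1 gave 3 calls in place of 25, I/R 2 gave 6, and DHI 2 or DHI 3 gave 5. The share of all probes called, 21.9% with every array kept, dropped as well. It was 5.82% once I/R 1 was removed and 6.99% once I/R 2 was. Removing DHI 2 left 3.95%, and removing DHI 3 left 4.75%.

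**Figure D3:**
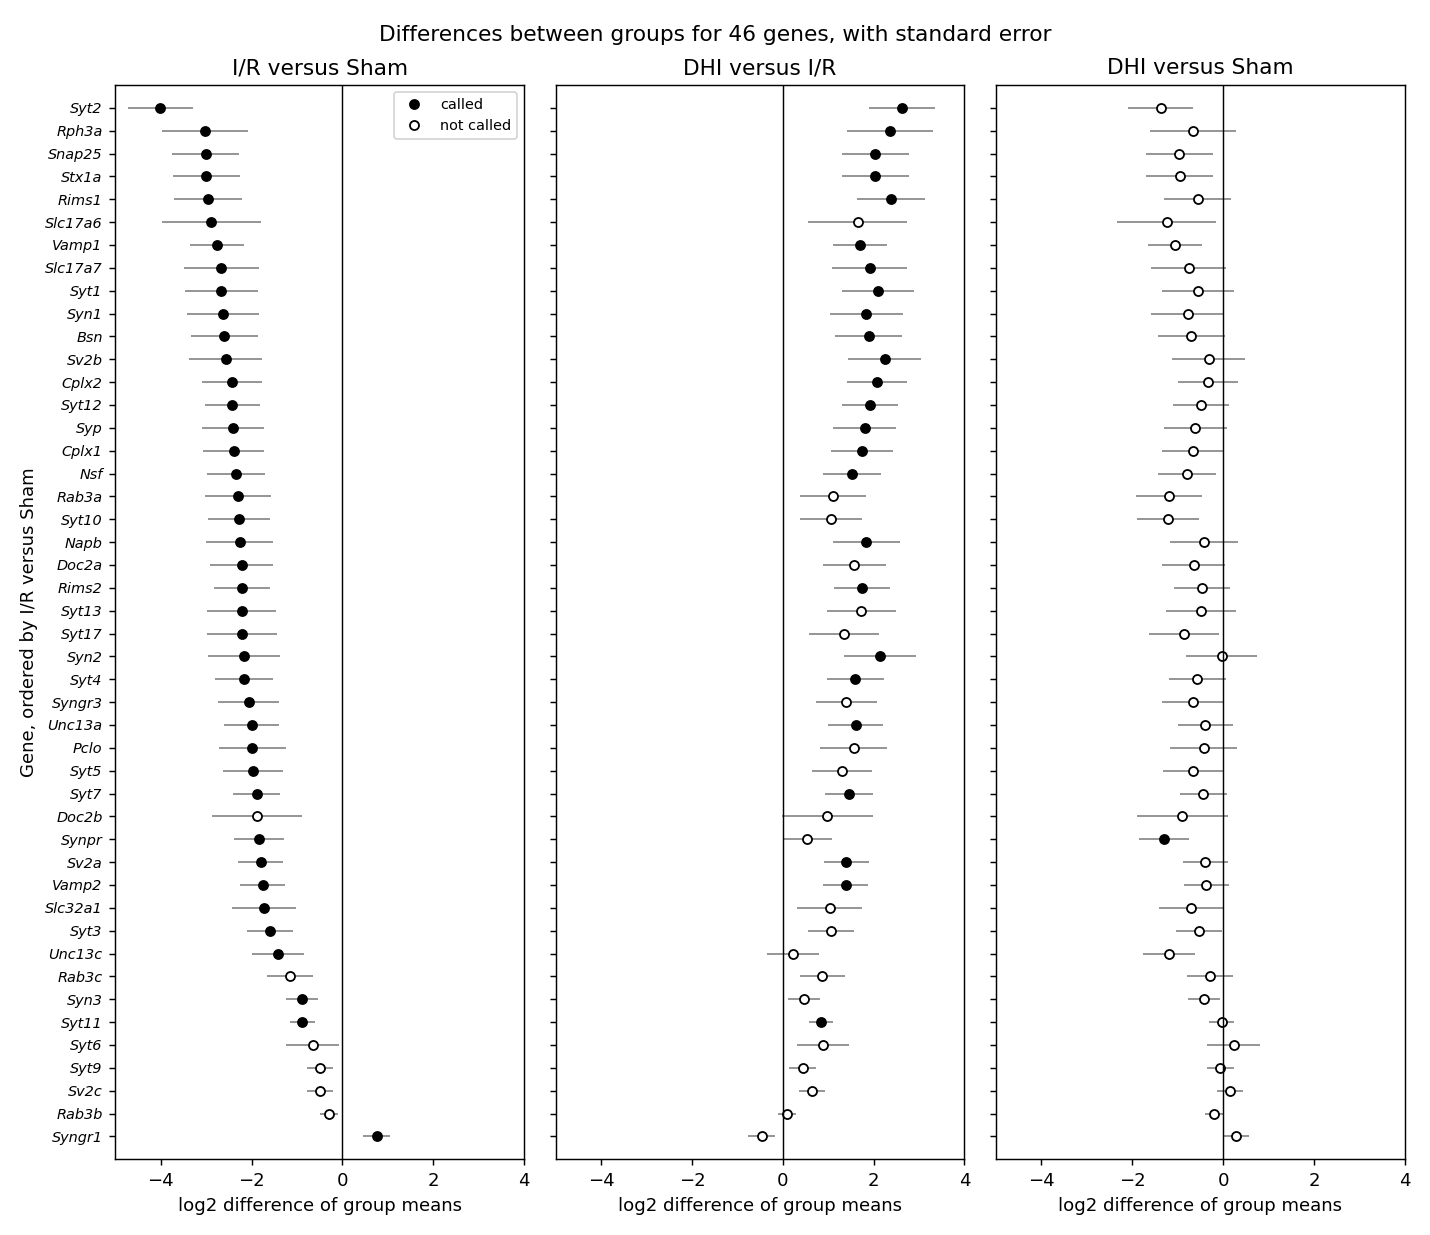
Difference between group means on the log2 scale (horizontal axis) with its standard error from limma (bars) for 46 genes (vertical axis, ordered by I/R versus Sham) in the 3 comparisons. Filled points were called at an unadjusted p under 0.05 and a fold change over 1.5: 40 in I/R versus Sham, 25 in DHI versus I/R, and 1, Synpr, in DHI versus Sham.

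The genes called higher in DHI came from most roles. All 4 SNAREs, both genes of SNARE disassembly, and both complexins were called, along with 4 of 6 genes of priming and the active zone. None of the 3 Rab3 genes was called, with estimates of 1.11 for Rab3a, 0.10 for Rab3b, and 0.87 for Rab3c. Of all probes, 11.5% were called higher in this comparison. Syt2 had the largest difference, 2.63 (SE 0.72, adjusted p = 0.196), a 6.18-fold difference, and all of its DHI arrays lay above I/R, although DHI 1 (-5.07) was only just above I/R 3 (-5.25). Rims1 was higher by 2.39 (SE 0.75), Rph3a by 2.36 (SE 0.94), Sv2b by 2.25 (SE 0.80), and Syn2 by 2.14 (SE 0.79). Each had the same adjusted p of 0.196. Syt2 and Rims1 were called in all of the leave-one-out fits and without scaling (2.17 and 1.93).

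Of the textbook core, Syt1 was higher by 2.11 (SE 0.80), Stx1a by 2.04 (SE 0.74), Snap25 by 2.03 (SE 0.74), Syn1 by 1.84 (SE 0.80), Syp by 1.80 (SE 0.69), and Vamp2 by 1.39 (SE 0.49). All were called and none passed the adjustment. The call was lost in 12 of 21 alternatives for Syn1 and in 7 each for Syt1, Stx1a, Snap25, Syp, and Vamp2. Among the transporters, Slc17a7 was called, with 1.91 (SE 0.82), whereas Slc17a6 with 1.65 (SE 1.09) and Slc32a1 with 1.03 (SE 0.71) were not. The call of Slc17a7 was lost in 12 of 21 alternatives. The smallest positive estimates were those of Rab3b with 0.10 (SE 0.19), Unc13c with 0.23 (SE 0.58), Syt9 with 0.44 (SE 0.29), and Syn3 with 0.47 (SE 0.36). Synpr was also low, with 0.54 (SE 0.54). These 5 were not called. The second probe of Unc13c, also not called, gave 1.63.

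DHI versus Sham asked what remained. Only Synpr was called, lower by 1.30 (SE 0.54, adjusted p = 0.709), or 2.17% of the genes, against 3.58% of all probes called in either direction and 1.06% called lower. None of the 46 passed the adjustment, and the methods' t-test called 0, against 1.89% of all probes. The median difference was -0.56, against 0.02 for all probes, and 43 of the 46 estimates were negative. All DHI arrays were below all Sham arrays for 5 genes, Syt17, Nsf, Rab3a, Synpr, and Syngr3, or 10.9%, against 8.34% of probes separate in that direction and 18.6% in either. This median rested on DHI 1, and it was -0.0013 without it. Then the call of Synpr was lost (-0.81) and the 1 gene called was Syt6, higher by 0.93, a gene that had not been called in the other comparisons. The estimates farthest from Sham besides Synpr were -1.38 (SE 0.72) for Syt2, -1.24 (SE 1.09) for Slc17a6, -1.21 (SE 0.68) for Syt10, and -1.19 for both Rab3a (SE 0.73) and Unc13c (SE 0.58). None of these was called.

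Differences between related genes were then taken within each array, where the scaling cancels, for 7 pairs. With 3 arrays against 3 the smallest p of the exact two-sided permutation test is 0.1, so no pair could pass 0.05. The difference Syt1 minus Syt2 was 1.60 ± 0.31 (SD, n = 3) in Sham and 2.94 ± 0.69 in I/R, 1.34 higher, with no overlap (exact p = 0.1, adjusted p = 0.35 over the 7 pairs). Vamp2 minus Vamp1 was -0.38 ± 0.22 in Sham and 0.63 ± 0.11 in I/R, 1.01 higher, also with no overlap (exact p = 0.1, adjusted p = 0.35). With normexp background correction, Vamp2 minus Vamp1 was still 1.02 higher (exact p = 0.1), whereas Syt1 minus Syt2 was 0.37 higher and its groups overlapped (exact p = 0.8). In DHI versus I/R the same pairs changed by -0.52 and -0.31, with overlap (exact p = 0.4 and 0.3).

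Sv2b minus Sv2c changed by -2.07 and Rab3a minus Rab3b by -2.01 in I/R versus Sham (exact p = 0.2 for both, adjusted p = 0.35). On these pairs I/R 3 lay within the Sham range. The balance of transporters did not separate the groups. Slc17a7 minus Slc32a1, glutamate over GABA, changed by -0.93 (exact p = 0.6) and Slc17a7 minus Slc17a6 by 0.22 (exact p = 1). Cplx2 minus Cplx1 changed by -0.03 (exact p = 0.8). The last of these turned sign under quantile normalization (0.036), and Slc17a7 minus Slc17a6 did so without Sham 3 (-0.37), I/R 1 (-0.21), or I/R 3 (-0.20).

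Beyond the 46, a list of 44 other exocytosis genes was read in the same way. Of these, 42 were on the array and 41 were tested, while Rab3gap1 and Syt14 were not analysed here. In I/R versus Sham 21 were called lower and 5 higher, against 22.3% and 20.8% of all probes, and the median was -0.89. Cadps2, a factor of dense-core vesicle priming, had the largest fall, with -2.61 (SE 0.80, adjusted p = 0.0436). Cadps2 had levels of 0.29, 0.94, and 0.67 on the Sham arrays and -2.84, -2.57, and -0.55 on the I/R arrays. The arrays of the groups did not overlap.

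The genes called higher were Rab3il1, Syngr2, Vamp8, Snap23, and Vamp3. Most of these are forms used in secretion by cells of many kinds, Syngr2 being the non-neuronal synaptogyrin and Snap23 and Vamp8 SNAREs of granule release. Rab3il1, an activator of Rab3 proteins, had levels of -4.09, -4.47, and -3.97 on the Sham arrays, -0.88, -1.01, and -2.17 on the I/R arrays, and -1.50, -4.50, and -3.91 on the DHI arrays. It rose by 2.83 (SE 0.73, adjusted p = 0.0396). Syngr2 had levels of -2.86, -2.73, and -2.36 on the Sham arrays, 0.68, 0.06, and -0.92 on the I/R arrays, and -0.37, -2.70, and -2.15 on the DHI arrays. It rose by 2.59 (SE 0.62, adjusted p = 0.0396). In both, DHI 1 was at the level of I/R and the other DHI arrays were at the level of Sham.

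In DHI versus I/R, 11 of the 41 were called higher and 4 lower, against 11.5% and 10.5% of all probes, with a median of 0.64. Rimbp2 (1.88, SE 0.69) was among the largest rises, and Rab3il1 (-1.95, SE 0.73) and Syngr2 (-1.68, SE 0.62) had the largest falls. All had an adjusted p of 0.196. None of the 41 was called in DHI versus Sham, where 3.58% of all probes were.

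Other parts of the synapse had values near those of the vesicle genes. In I/R versus Sham, the median was -1.83 for 10 genes of vesicle recycling, with 8 called lower and 1 higher. It was -2.15 for 16 postsynaptic scaffold genes, with 13 lower and 1 higher, and -2.08 for 7 genes of transmitter synthesis, with 5 lower. Of all probes, 22.3% were called lower and 20.8% higher in that comparison. In DHI versus I/R the medians were 1.29, 1.46, and 1.35, and 6, 10, and 3 genes were called higher, against 11.5% of all probes. None of these genes was called in DHI versus Sham, where 3.58% of all probes were.

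Neuron markers moved along with the vesicle genes, while microglia and macrophage markers moved the other way. Of all probes, 22.3% were called lower and 20.8% higher in I/R versus Sham. In DHI versus I/R, 10.5% were called lower and 11.5% higher. Of 12 neuron markers that are not vesicle genes, 11 were called lower in I/R versus Sham, with a median of -1.93, and 6 were called higher in DHI versus I/R, with a median of 1.55. Their array medians, relative to Sham, were -2.92, -2.08, and -0.92 on I/R 1 to I/R 3 and -1.81, 0.26, and -0.08 on DHI 1 to DHI 3. The median of the vesicle genes minus that of the neuron markers lay between -0.48 and 0.09 on the 9 arrays. Their summed linear level was 156 to 174 on the Sham arrays, 21.7 to 95.8 on the I/R arrays, and 57.0 to 181 on the DHI arrays. Of 10 microglia and macrophage markers, 9 were called higher in I/R versus Sham, with a median of 3.79, and 8 lower in DHI versus I/R, with a median of -2.45. Their summed level was 19.1 to 23.0 on the Sham arrays, 146 to 367 on the I/R arrays, and 26.2 to 208 on the DHI arrays, with the highest DHI value on DHI 1. The part of these cells in the change of the vesicle genes was not tested.

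Astrocyte markers had a median of 0.54 in I/R versus Sham, with 4 of 8 called higher and 2 lower, and a summed level of 178 to 187 on the Sham arrays and 158 to 201 on the I/R arrays. The medians were -0.03 for 8 oligodendrocyte markers, with 1 called higher, and 0.58 for 7 endothelial markers, with 3 called higher. In the same comparison 20.8% of all probes were called higher. Choroid plexus markers, tissue that can be taken along with a hemisphere, had a median of 2.27 over 6 genes, 2 called higher, with a summed level of 0.480 to 1.14 on the Sham arrays and 1.31 to 93.8 on the I/R arrays. The summed level was 7.52 to 138 on the DHI arrays, highest on DHI 1, and 2 of the 6 were called higher than in Sham there too (median 2.38). In DHI versus Sham 3.58% of all probes were called in either direction. Red blood cell markers were all 4 called lower, with a median of -2.11, and all 4 called higher in DHI versus I/R, with a median of 2.77. The part of these tissues in the result was not tested either. Each of the markers was above background on at least 1 array.

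**Figure D4:**
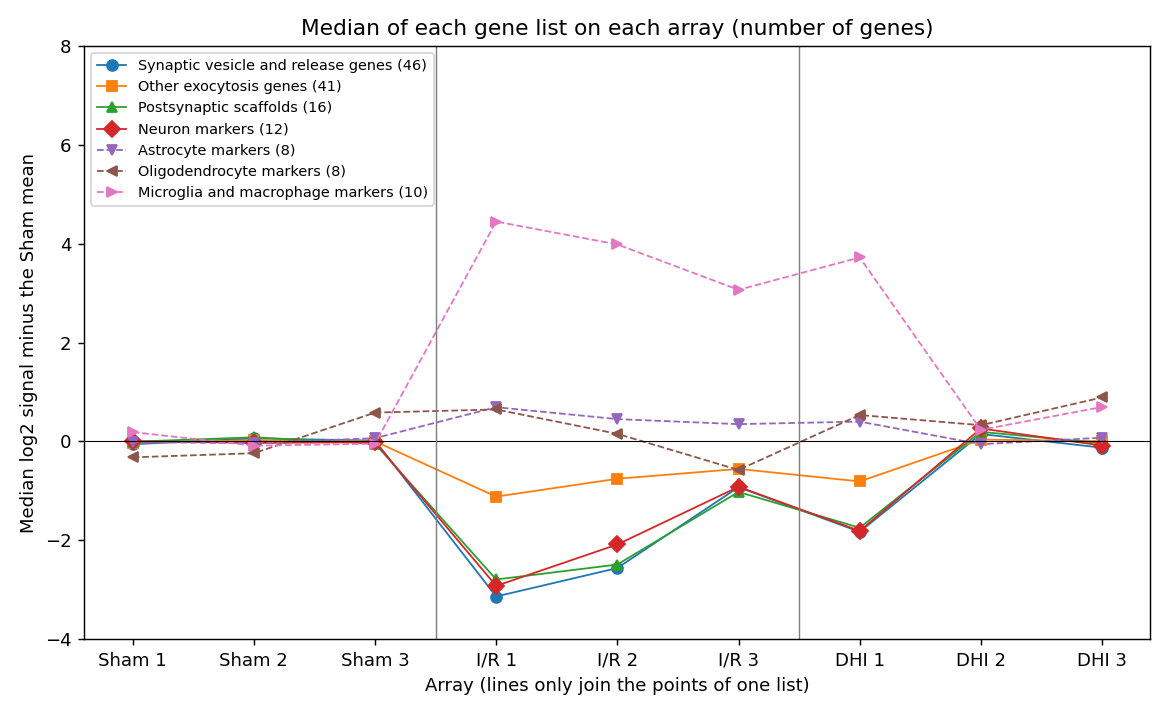
Median over the genes of a list (number in brackets) of the log2 signal minus the mean of the 3 Sham arrays (vertical axis) on each of the 9 arrays (horizontal axis); lines only join the points of a list. The vesicle genes, postsynaptic scaffolds, and neuron markers lie close together on every array, the microglia and macrophage markers run the other way with medians of 3.07 to 4.45 in I/R and 3.72 on DHI 1, and oligodendrocyte markers stay between -0.58 and 0.89.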

How the data were processed

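One-colour Agilent rat arrays were read by Agilent Feature Extraction 10.7.1.1, per the submitters' processing notes, and the deposited intensity values (processed signal) were already background-subtracted by that program. The authors' normalized log2 table was also deposited; its scaling was not given in the sources used here, and it served as an alternative. Control and outlier spots were left out, spots of a probe were averaged as log2 values, and the log2 of the 75th percentile of each array was subtracted. A probe was kept when some group had it well above background on each of its 3 arrays, which left 23747 of 30367 probes, and these were fitted with limma 3.58.1 in R 4.3.3 (lmFit, eBayes, 1 mean per group, all 9 arrays), with Benjamini-Hochberg adjustment over all of them. The fit was tested on simulated data. No spot was saturated. The number of arrays limits the precision.

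The members and lists were chosen with earlier results of these data known. Genes described array by array were the 5 largest rises and 5 largest falls among called genes of I/R versus Sham and DHI versus I/R, those called against the majority, those called in DHI versus Sham, the vesicular transporters, and Syt1, Snap25, Stx1a, Vamp2, Syp, and Syn1. Cross-hybridization between related genes was not tested. Probe positions are those of the array design (rn4), while promoters are from GRCr8, and no position was converted. Alternatives changed the normalization, the background correction, the probe filter, the choice of probe, the outlier spots, the arrays, the weights, the block, and the test. Of the other exocytosis genes, those with the 2 largest rises and falls were named, except for 1 gene that is not reported here.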

Additional observations from a re-analysis of the deposited data

How the results depend on the processing

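I/R versus Sham kept its direction under every alternative run, with 28 to 41 of 46 genes called, against 31.7% to 55.1% of all probes. The number of calls in DHI versus I/R and the adjusted counts varied more. The adjusted count in I/R versus Sham (30) was 0 without scaling, 15 with no filter on dim probes, 13 with the methods' t-test, and 0 to 39 when single arrays were left out. Of all probes, 31.5% passed in the main fit, 0.00421% without scaling, 16.5% with no filter, and 26% with the t-test. The share was 0% to 43.2% without single arrays. In DHI versus I/R, the 25 calls became 6 without scaling (5 higher and Syngr1 lower), 7 with only the 2 groups compared, 0 with the methods' t-test, 44 with array weights (44 adjusted), and 3 to 39 without single arrays (0 to 32 adjusted). Of all probes, 21.9% were called in the main fit, 31.3% without scaling, 9.05% with the 2 groups, and 1.97% with the t-test. The share was 50.1% with array weights (49.8% adjusted) and 3.95% to 45.2% without single arrays (0% to 40.1% adjusted). In DHI versus Sham, the 1 call became 2 with quantile normalization, the authors' table, only the 2 groups compared, or the replicate block, 4 without scaling, 6 with array weights (4 adjusted), 0 with the methods' t-test, and 0 to 2 without single arrays. Of all probes, 3.58% were called in the main fit, 3.3% with quantile normalization, 3.31% with the authors' table, and 3.82% with the 2 groups. The share was 5.39% with the replicate block, 7.11% without scaling, and 14.7% with array weights (8.36% adjusted). It was 1.89% with the methods' t-test and 1.45% to 10.6% without single arrays. Without scaling, the median of all probes was 0.10 in I/R versus Sham, -0.36 in DHI versus I/R, and -0.25 in DHI versus Sham. The median of the vesicle genes minus it was -2.11, 1.47, and -0.58, which the scaling cannot move because it shifts all probes of an array alike. It was 1.15 in DHI versus I/R with normexp. Of all calls in DHI versus I/R, 52.2% were higher, 4.8% without scaling and 63.7% with normexp.

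Some pair differences turned sign. Slc17a7 minus Slc17a6 was -0.13 in DHI versus I/R with normexp, where Syt1 minus Syt2 was 0.14. Cplx2 minus Cplx1 in I/R versus Sham was 0.036 with quantile normalization, 0.0022 with normexp, 0.047 in the authors' table, and 0.11 with all probes of a gene averaged. Without single arrays it ran from -0.24 to 0.11, Slc17a7 minus Slc17a6 from -0.37 to 1.08 in I/R versus Sham and -0.60 to 0.71 in DHI versus I/R, and Slc17a7 minus Slc32a1 from -0.0081 to 1.54 in DHI versus I/R. For the 16 genes described array by array, each comparison had 336 alternative values. No called gene among them changed direction, while uncalled estimates of DHI versus Sham changed sign in some settings, with Syn2 negative in 17 of 21 and Rph3a in 19 of 21. Calls were lost in 26 values of I/R versus Sham, 86 of DHI versus I/R, and 8 of DHI versus Sham, and were gained in 9 of DHI versus I/R and 4 of DHI versus Sham. The cause was not tested.

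Arrays of different groups share replicate numbers. Deviations of same-numbered arrays correlated between -0.34 and 0.48, and those of differently numbered arrays between -0.53 and 0.46. With 3 arrays per group, these ranges cannot settle whether the numbers pair the arrays. With the replicate block, 41 genes were called in I/R versus Sham (35 adjusted), 31 in DHI versus I/R, and 2 in DHI versus Sham. The shares of all probes called were 43.8% (35.5% adjusted), 26.6%, and 5.39%.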
